A study of Mus musculus with 4 samples.

Results

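The 10 genes described, called members, belong to the oxidative stress response run by the transcription factor NRF2, to cystine uptake and to lipid metabolism. They were Nfe2l2, which encodes NRF2 itself, Nqo1, Gclc, Gclm, Txnrd1, Srxn1, Gsr, G6pdx, the cystine carrier gene Slc7a11, and the acyl-CoA synthetase gene Acsl4. Acsl4 is not counted here as a target of NRF2. They were taken by symbol, with earlier results of these data known, and all 10 were found among the 32285 genes of the count tables. The level of each gene was read in 4 Visium sections of mouse kidney, 2 normal and 2 ischemic. In Visium, spots on a slide capture the RNA of the tissue above them, so that 1 spot can hold several cells of different types.

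The animals were wild-type C57BL/6J male mice of 7 to 8 weeks. The ischemic group had undergone ischemia of both kidneys for 30 min and was sampled 24 h later, and the labels call the other group normal ctrl without saying whether these mice had surgery. Left kidneys were cut at 10 µm, and the 4 sections lay on the 4 areas of a single slide. The study took 2 mice a condition and 2 technical replicates, but the mouse behind each section is not given. The p-values below thus measure the spread between sections, which may be technical. Tests by kidney zone treat the sums of zones as independent, although zones of a section share that section.

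NRF2 is held at a low level by the adaptor KEAP1, which hands it to a ubiquitin ligase. Oxidants and electrophiles modify KEAP1, NRF2 accumulates, pairs with a small MAF protein and binds the antioxidant response element of its target genes. The targets make and recycle glutathione and thioredoxin, detoxify quinones and supply NADPH. In the kidney, proximal tubule cells carry a high oxidative load, and the straight segment in the outer stripe of the outer medulla is known to be the part most exposed to ischemia. Cystine taken up by SLC7A11 is a source of cysteine for glutathione. ACSL4 helps to place polyunsaturated fatty acids into phospholipids, where they can be peroxidized during ferroptosis.

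The antioxidant response element has the core TGACNNNGC, and the members were searched for these letters on both strands, from 250 bases before to 50 bases after each annotated start (RefSeq, GRCm38.p6). The table held 10 promoters for 8 members, none for Gclc or Gsr, and no match of this motif overlapped another. The letters were found in 5 of the 10 member promoters, beside 12.4% of 32851 promoters of the same length in the table. These 5 promoters belong to 5 of the 8 members. A match is a description of these windows, not a site shown to be bound, and the absence of one says only that these letters were not there. The 5 matches are printed because they mark the member promoters that hold the letters, each in the direction of its gene with the match in capitals and up to 10 bases on either side.
Nfe2l2, chr2:75704885-75704913, minus strand, starting 240 bases before the start: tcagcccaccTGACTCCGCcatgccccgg
Gclm, chr3:122245413-122245441, plus strand, starting 134 bases before the start: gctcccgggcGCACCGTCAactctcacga
Txnrd1, chr10:82859104-82859132, plus strand, starting 92 bases before the second of 3 starts: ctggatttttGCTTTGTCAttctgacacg
Srxn1, chr2:152105542-152105570, plus strand, starting 28 bases after the start: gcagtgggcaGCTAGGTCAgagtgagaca
G6pdx, chrX:74428919-74428947, minus strand, starting 57 bases before the start: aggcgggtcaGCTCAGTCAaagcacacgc
The Nfe2l2 match read in the direction of the gene, and the other 4 read on the opposite strand. Nqo1, Slc7a11 and Acsl4 held no such letters in these windows.

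The sections held 25957128 to 44528078 UMIs (unique molecular identifiers, each standing for a captured transcript) over 2401 to 2682 spots, and 10312 spots in all. Normal section 1 was the deepest. Mitochondrial transcripts made up 3.36% to 5.21% of UMIs and hemoglobin transcripts 0.0763% to 0.903%, both lower in the ischemic sections than in the normal ones. The kidney was recognised by its own genes, as 8 of 8 proximal tubule markers were detected in every section. These 8 markers were lower after ischemia (summed level 165136 and 96631 CPM in normal sections, 21540 and 20023 CPM in ischemic sections), and 6 of 6 tubule injury markers, Havcr1 (KIM-1) and Lcn2 (NGAL) among them, were higher (898 and 1249 against 37344 and 39076 CPM). CPM is the count scaled to the TMM-adjusted library size of the section or zone sum, and plain CPM is named where used. In whole sections a lower level can come from fewer cells of a type or from less RNA in each cell, and these cannot be told apart.

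Over whole sections, 9 of the 10 genes rose after ischemia, none fell, and 1, Gclc, did not pass the test (edgeR quasi-likelihood test, adjusted p under 0.05 over 15305 genes). Of all genes tested, 60.6% passed, 31.0% as higher and 29.7% as lower. The median log2 fold change was 1.45 over the 10 genes and 0.04 over all genes. With library sizes alone the median over all genes was 0.31, and 67.0% of calls were higher in place of 51.1%. In 9 members both ischemic sections lay above both normal sections, beside 43.0% of all genes. The largest change was that of Slc7a11, followed by Srxn1 and Acsl4.

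Nfe2l2 (ENSMUSG00000015839, chr2:75675513-75704641 of GRCm38, minus strand), the gene of the transcription factor, stood at 55.7 and 63.6 CPM without ischemia and at 108 and 112 CPM after it. The groups did not overlap, and the sections of each group lay close together. The change was 0.88 ± 0.11 on the log2 scale (SE, 2 sections a group, edgeR adjusted p = 0.000136). Zone by zone it was 0.83 (cortex), 0.88 (outer stripe), 0.84 (inner stripe) and 0.91 (inner medulla), each past the threshold. No difference between these changes and that of cortex passed the test (adjusted p 0.892 to 0.999), and the smallest and largest of them were 0.01 ± 0.23 and 0.08 ± 0.24. The pelvis, which was not tested, held 111 and 126 CPM in normal sections, beside 61.3 and 65.6 CPM in the cortex. In ischemic sections it held 130 and 153 CPM, beside 113 and 112 CPM in the cortex. Among the 4 tested zones the levels of Nfe2l2 did not differ past the threshold either, in normal sections (adjusted p = 0.175) or in ischemic ones (0.108). However, 4 alternatives brought the normal difference past it (adjusted p 0.0105 to 0.0390) and 6 the ischemic one, among them leaving out normal section 1 (9.3e-05) or normal section 2 (0.000509).

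Zones were assigned from marker genes read in each spot with its neighbours. The cortex was marked by carriers of the proximal and distal convoluted tubule, the outer stripe by genes of the straight proximal tubule, the inner stripe by thick ascending limb genes such as Umod and Slc12a1, and the inner medulla by collecting duct and osmolyte genes. Cortex spots formed 1 large block in each normal section and 2 in each ischemic section. Over cortex and outer stripe, 81.2% to 93.1% of the neighbours of their spots lay in the same zone. Neighbours entered the score of each spot, so part of this agreement was built in. From the spot alone, 61.2% and 62.0% of ischemic and 71.7% and 74.4% of normal outer stripe spots kept their zone. For the inner medulla these shares were 62.7% and 70.3% (ischemic) and 60.4% and 70.1% (normal). The inner medulla was also mixed with the inner stripe. In ischemic sections 24.5% and 31.0% of the neighbours of its spots were inner stripe spots, beside 5.21% and 11.1% in normal sections, and the summed level of its own 5 markers was higher in the ischemic outer stripe (6612 and 6533 CPM) than in the ischemic inner medulla (3395 and 3508 CPM). The outer stripe markers themselves were far lower after ischemia, at 4724 and 3858 CPM in the normal outer stripe and 487 and 514 CPM in the ischemic one. Their part in the zone results was not tested. Inner stripe changes were also computed with both inner zones taken as 1 zone, a setting chosen after seeing the data. Under it the calls of Nqo1 and Gclm were lost, with values given below, and the other 8 members kept their direction and their side of the threshold.

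By zone, the cortex had 9 members that rose and 0 that fell (of 14174 genes tested there, 40.1% passed, 20.2% as higher and 19.9% as lower). The outer stripe had 8 and 1 (background 56.9%, 27.4% and 29.5%), the inner stripe 7 and 2 (48.2%, 22.2% and 25.9%) and the inner medulla 9 and 0 (35.1%, 13.9% and 21.2%). With the 4 zones weighted equally 8 rose and 0 fell (67.6%, 32.7% and 34.9%). These counts include Slc7a11, whose fitted values are unstable where the normal sections held no count. Without ischemic section 2, which leaves 1 ischemic section, fewer members passed in the inner stripe and inner medulla. Fewer of all genes passed there too.

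**Figure D1:**
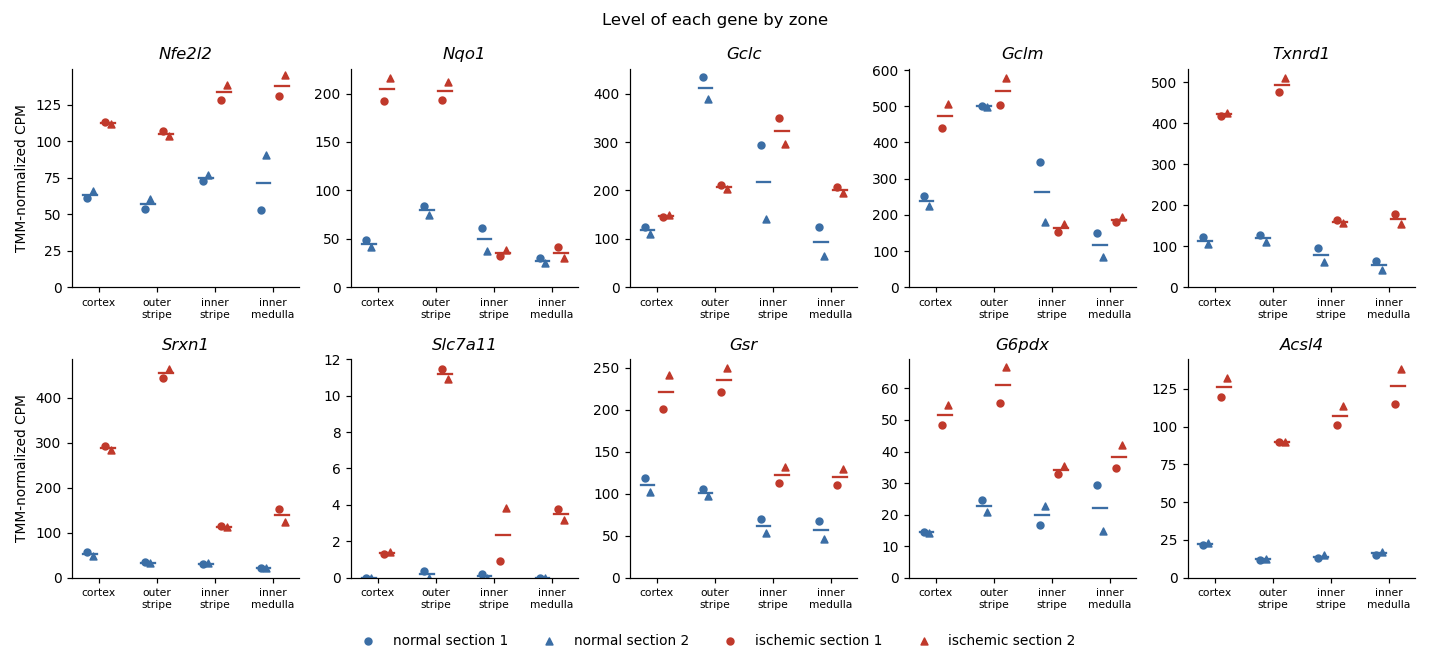
Level of each of the 10 genes by zone, in TMM-normalized CPM on linear axes that start at 0. Blue marks are normal and red marks ischemic sections (circles section 1, triangles section 2), and short lines are group means of 2 sections. Srxn1 and Slc7a11 are highest in the ischemic outer stripe, Nqo1 is high in ischemic cortex and outer stripe but not in the inner zones, and Gclc is the gene whose outer stripe level is lower after ischemia.

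Sulfiredoxin, the product of Srxn1 (ENSMUSG00000032802, chr2:152105516-152111376, plus strand), restores overoxidized peroxiredoxins. Srxn1 stood at 38.5 and 33.2 CPM in normal and at 267 and 260 CPM in ischemic sections, so that the ischemic sections were close to each other and far above the normal ones. The whole-section change was 2.88 ± 0.13 (log2, SE, edgeR adjusted p = 3.4e-07), a 7.34-fold rise. In 4 of 4 tested zones the ischemic sections lay above the normal ones. Normal cortex held 56.1 and 49.1 CPM, above the 22.0 to 34.5 CPM of the other 3 zones, and Srxn1 differed among zones of the normal kidney (adjusted p = 8.4e-05, where 47.2% of genes passed). After ischemia the order was another one. Outer stripe (445 and 465 CPM), cortex (293 and 285), inner medulla (152 and 125) and inner stripe (115 and 112) followed each other, and no neighbours in this order overlapped. The rise was 3.78 ± 0.16 on the log2 scale in the outer stripe and 2.45 ± 0.15 in the cortex. The difference between these rises, 1.32 ± 0.20, passed the test (adjusted p = 0.00037, where 11.7% of genes passed, 4.42% as higher and 7.33% as lower), but not without ischemic section 1 (1.37, adjusted p = 0.0985) or ischemic section 2 (1.27, adjusted p = 0.113). A UMI of Srxn1 was found in 39.3% and 26.7% of normal spots and in 81.6% and 72.5% of ischemic spots, at median depths of 16162.5, 8656, 11851 and 8883 UMIs a spot.

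Thioredoxin reductase 1 (Txnrd1, ENSMUSG00000020250, chr10:82833951-82897712, plus strand) reduces cytosolic thioredoxin with NADPH. It rose from 104 and 83.3 CPM to 331 and 329 CPM (log2 change 1.82 ± 0.14, adjusted p = 7.1e-06). The ischemic sections differed by less than the normal ones did. After ischemia the outer stripe (475 and 509 CPM) and the cortex (417 and 425 CPM) lay above the inner stripe and inner medulla (153 to 179 CPM), and these inner zones overlapped with each other. Its rise was 2.05 (outer stripe), 1.89 (cortex), 1.68 (inner medulla) and 1.03 (inner stripe), each past the threshold. The inner stripe rise minus that of the cortex was -0.86 ± 0.28, which did not pass the test (adjusted p = 0.051), and 6 alternatives brought it past the threshold, among them leaving out normal section 2 (4.7e-06).

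Glutathione reductase (Gsr, ENSMUSG00000031584, chr8:33652523-33698163, plus strand) returns oxidized glutathione to its reduced form. Gsr rose from 92.3 and 77.4 CPM to 168 and 191 CPM (1.08 ± 0.13, adjusted p = 0.000116), with no overlap of the groups. By zone, the rise was 1.22 (outer stripe), 1.12 (inner medulla), 1.002 (cortex) and 0.98 (inner stripe), each past the threshold. None of the differences from the cortex passed the test, and the inner stripe difference, -0.02 ± 0.26, took the other sign under 9 alternatives. Normal and ischemic kidneys had the same order of outer and inner zones, with cortex and outer stripe (97.3 to 119 CPM in normal, 201 to 250 CPM in ischemic) above the inner stripe and inner medulla (45.7 to 69.9 and 111 to 131 CPM).

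Glucose-6-phosphate dehydrogenase (G6pdx, ENSMUSG00000031400, chrX:74409483-74429194, minus strand) makes the NADPH that these reductases use. G6pdx rose from 17.3 and 16.8 CPM to 42.8 and 49.0 CPM (1.43 ± 0.10, adjusted p = 4.8e-06). Among the 4 tested zones of the normal kidney the cortex held its lowest levels, 14.5 and 14.2 CPM, and the others 14.8 to 29.2 CPM. The normal pelvis, which was not tested, stood higher, at 36.1 and 34.3 CPM. After ischemia the outer stripe (55.5 and 66.7 CPM) and cortex (48.3 and 54.9 CPM) were above the inner zones (32.8 to 41.9 CPM). The rise was 0.81 ± 0.20 in the inner stripe and 1.84 ± 0.16 in the cortex, a difference of -1.03 ± 0.26 (adjusted p = 0.0118, where 11.1% of genes passed, 2.77% as higher and 8.35% as lower). This difference was lost without ischemic section 1 (adjusted p = 0.217) or ischemic section 2 (0.258), and with library sizes alone or with zones from the spot alone. The inner stripe rise itself was lost without ischemic section 2 (0.76, adjusted p = 0.0538), and the inner medulla rise of 0.89 was lost without normal section 2 (0.38, adjusted p = 0.334) or ischemic section 2 (0.75, adjusted p = 0.121). G6pdx shares part of its locus with Ikbkg, which lies on the opposite strand and had 2995 counts beside 3957 for G6pdx. The sources used here do not state if strand entered the counting, so that reads of the shared part cannot be told apart. The intronless copy G6pd2 had 10 counts in all sections together.

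NAD(P)H quinone dehydrogenase 1 (Nqo1, ENSMUSG00000003849, chr8:107388225-107403206, minus strand) reduces quinones by 2 electrons at once, which keeps them from cycling. Over whole sections it rose from 53.7 and 44.1 CPM to 133 and 139 CPM (1.47 ± 0.12, adjusted p = 1.1e-05). This rise was uneven. In the cortex Nqo1 stood at 48.4 and 41.4 CPM in normal and at 193 and 216 CPM in ischemic sections, a 4.55-fold rise (2.18 ± 0.18, adjusted p = 1.9e-08). In the outer stripe it went from 84.4 and 75.1 CPM to 193 and 212 CPM (1.34 ± 0.18, adjusted p = 2.9e-06). The normal outer stripe lay above the normal cortex, whereas the ischemic levels of both zones overlapped.

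In the inner stripe Nqo1 stood at 61.1 and 37.7 CPM in normal and at 32.5 and 38.8 CPM in ischemic sections, which overlapped. The test there gave a fall of 0.49 on the log2 scale (SE 0.20) at an adjusted p of 0.0493, and this call was not stable. It was lost in 10 of 16 alternatives, among them leaving out normal section 1 (-0.06, adjusted p = 0.844), ischemic section 1 (-0.35, 0.394) or ischemic section 2 (-0.61, 0.135) and joining the inner zones (-0.28, 0.227), and it turned into a rise of 0.48 (0.0409) when each spot was assigned from its own counts. In the inner medulla the levels were 30.2 and 24.9 CPM in normal and 41.5 and 30.3 CPM in ischemic sections (0.41 ± 0.26, adjusted p = 0.242). The distance between zones was firmer than the direction in the inner stripe. Its change there minus that of the cortex was -2.68 ± 0.27 (adjusted p = 4.7e-06), and in 15 of 15 alternatives this difference kept its direction and passed. The same difference was -0.84 ± 0.25 for the outer stripe (adjusted p = 0.0332) and -1.78 ± 0.32 for the inner medulla (0.00194, where 7.25% of genes passed, 1.64% as higher and 5.60% as lower). These smaller differences were lost without ischemic section 1 (adjusted p = 0.398 and 0.0504) or ischemic section 2 (0.388 and 0.161). The outer stripe difference was also lost with RLE scaling (0.0509), DESeq2 (0.0618), without spots near a boundary (0.114) and with another cortex marker list (0.0816).

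Glutamate-cysteine ligase joins glutamate and cysteine, the rate-limiting step of glutathione synthesis. Gclc encodes its catalytic subunit and Gclm the subunit that modifies its affinity and feedback inhibition. Gclc (ENSMUSG00000032350, chr9:77754535-77794485, plus strand) stood at 219 and 178 CPM in normal and at 195 and 185 CPM in ischemic whole sections. The ischemic values lay between the normal ones, and the change of -0.06 ± 0.13 did not pass the test (adjusted p = 0.712). It was 0.22 with library sizes alone, 0.10 without normal section 1, and -0.23 without normal section 2, which passed the test (adjusted p = 0.00764).

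Its zones differed. In the outer stripe Gclc stood at 433 and 389 CPM in normal and at 212 and 203 CPM in ischemic sections, with a wide gap between the groups. It fell by 0.99 on the log2 scale (SE 0.26, adjusted p = 0.00336). Leaving out ischemic section 1 or 2 kept the size (-1.01 and -0.95) but not the call. Over all 16 alternatives Gclc changed by -1.07 to -0.58 there. In the cortex it stood at 124 and 111 CPM against 145 and 150 CPM (0.33 ± 0.26, adjusted p = 0.343), and this passed without normal section 1 (0.33, adjusted p = 0.0323). The outer stripe change minus that of the cortex was -1.31 ± 0.37 (adjusted p = 0.0262), a difference lost without ischemic section 1 (-1.37, 0.38) or ischemic section 2 (-1.26, 0.4). In the inner medulla Gclc rose from 124 and 64.7 CPM to 207 and 194 CPM (1.12 ± 0.29, adjusted p = 0.00544), lost without ischemic section 1 (1.08, 0.0889) or section 2 (1.17, 0.0659).

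In the inner stripe the normal sections disagreed on Gclc, with 293 CPM in section 1 and 141 CPM in section 2, below 349 and 295 CPM in the ischemic sections. The change of 0.56 ± 0.26 did not pass (adjusted p = 0.0865), but it passed in 7 of 16 alternatives, at 1.22 (1.9e-08) without normal section 1, 1.03 (0.00363) without spots near a zone boundary and 0.60 (0.0163) with section number as a block. The summed level of the 5 outer stripe markers in this zone was 3132 CPM in normal section 1 and 1220 CPM in normal section 2, and their part in the difference was not tested.

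The place of the highest Gclc level also differed. Of the 5% of spots with the highest Gclc in each section, read with their neighbours, 81.7% and 94.1% were outer stripe spots in the normal kidneys. In the ischemic kidneys 3.31% and 4.58% were, and 88.4% and 87.8% were inner stripe spots. By distance, Gclc was highest 4 to 6 spot steps inward of the cortex in both normal sections (317 and 305 plain CPM) and 7 to 9 steps inward in both ischemic sections (430 and 323 CPM). These positions describe 2 sections a condition and were not tested, and the distances rest on the cortex markers alone. In the bin of 7 to 9 steps, outer stripe spots made up 58.3% and 39.1% of spots in normal kidneys, against 8.77% and 21.7% after ischemia.

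**Figure D2:**
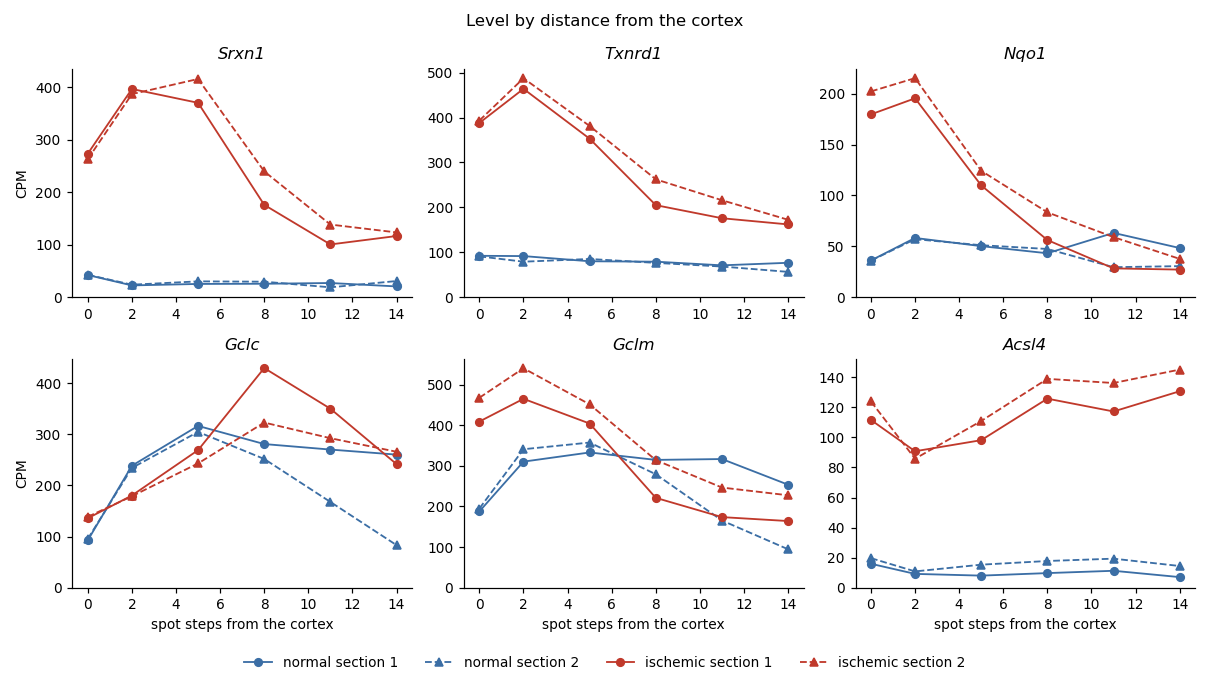
Level of 6 genes by distance from the cortex, as plain CPM against spot steps inward of the nearest block of cortex spots (0 is the cortex, further points are the middle of bins of 3 steps, each of at least 20 spots). Blue lines are normal and red lines ischemic sections. Gclc peaks at 4 to 6 steps in normal and 7 to 9 steps in ischemic sections, Srxn1, Txnrd1 and Nqo1 are highest in or near the cortex in ischemic sections, and Acsl4 is raised at each distance.

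**Figure D3:**
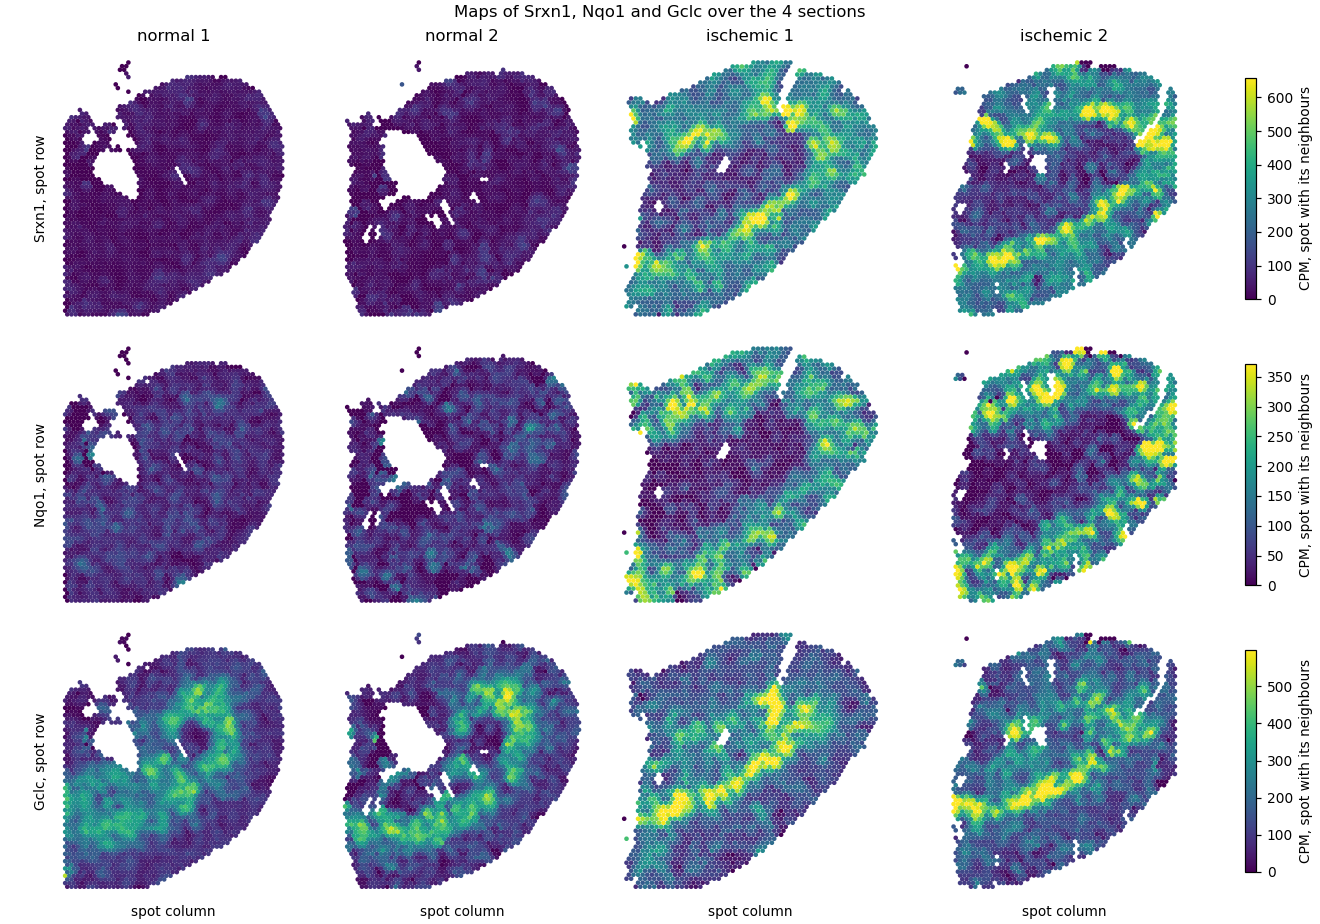
Maps of Srxn1, Nqo1 and Gclc over the 4 sections, each dot a spot placed by its row and column on the slide and coloured by CPM of the spot with its neighbours (1 linear colour scale a gene, starting at 0). Srxn1 forms a band at the inner edge of the ischemic cortex, Nqo1 fills the ischemic cortex and outer stripe, and the Gclc band of the ischemic sections lies inward of the Srxn1 band.

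Gclm (ENSMUSG00000028124, chr3:122245557-122270732, plus strand) stood at 299 and 258.5 CPM in normal and at 347 and 384 CPM in ischemic whole sections. It rose by 0.39 ± 0.14 (adjusted p = 0.0342), without overlap, but the call was lost with RLE scaling (0.35, adjusted p = 0.0819) and without ischemic section 1 (0.47, 0.2) or ischemic section 2 (0.32, 0.39). In the cortex it rose from 252 and 225 CPM to 439 and 506 CPM (0.99 ± 0.24, adjusted p = 0.00243), again lost without ischemic section 1 (1.10, 0.0543) or section 2 (0.89, 0.117). In the outer stripe, where the normal level was highest, Gclm stood at 502 and 497 CPM in normal and 504 and 579 CPM in ischemic sections (0.12 ± 0.23, adjusted p = 0.691).

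In the inner stripe Gclm stood at 347 and 181 CPM in normal and 152 and 173 CPM in ischemic sections. The fall of 0.70 on the log2 scale (SE 0.24, adjusted p = 0.0209) was lost in 9 of 16 alternatives, among them leaving out normal section 1 (-0.12, 0.463) and joining the inner zones (-0.38, 0.183), and the outer stripe markers given above for Gclc apply here too. In the inner medulla it rose from 149 and 84.9 CPM to 181 and 193 CPM (0.70 ± 0.26, adjusted p = 0.0409), which was lost without normal section 2 (0.32, 0.122), ischemic section 1 (0.75, 0.191) or ischemic section 2 (0.65, 0.255). The inner stripe change minus that of the cortex was -1.69 ± 0.34 (adjusted p = 0.00212), lost without ischemic section 1 (-1.69, 0.172) or section 2 (-1.67, 0.171). The antisense gene Gm17494 overlaps Gclm and had 336 counts beside 40967.

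**Figure D4:**
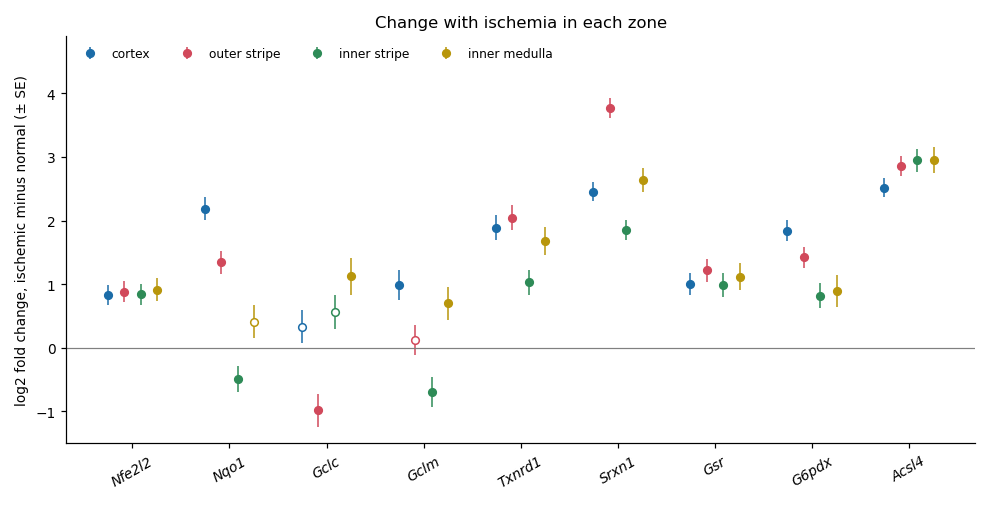
Log2 fold change, ischemic minus normal, of 9 genes in 4 zones with its SE from the edgeR fit on TMM-scaled sums. Filled points passed at an adjusted p under 0.05 and open points did not. Slc7a11 is left out because its normal counts were 0 or near 0. The points of Nfe2l2, Gsr and Acsl4 lie together, while those of Nqo1, Gclc and Gclm spread on both sides of 0; with zones from the spot alone the inner stripe point of Nqo1 lies above 0.

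The light chain of the cystine carrier, Slc7a11 (ENSMUSG00000027737, chr3:49892526-50443614, minus strand), was sparse. The normal sections held 5 and 4 counts and the ischemic sections 151 and 133, which corresponds to 0.136 and 0.145 CPM against 4.45 and 4.64 CPM. Both ischemic sections lay far above both normal ones. The change was 4.98 ± 0.31 (log2, adjusted p = 1.9e-06), and the ratio of the pooled counts was 32.5 (exact 95% interval 16.9 to 71.8, which covers counting error only). It was seen in 5 of 2616 and 4 of 2682 normal spots and in 125 of 2401 and 115 of 2613 ischemic spots.

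Of the 284 ischemic counts of Slc7a11, 201 (70.8%) came from the outer stripe. There the level was 11.4 and 10.9 CPM in ischemic sections against 4 counts in 1 normal section and 0 in the other, a ratio of 50.7 (19.5 to 188). In the cortex the ischemic sections held 27 counts (1.33 CPM in the mean) and the normal sections 0, which makes the ischemic cortex at least 5.55-fold higher, with 3 counts a section as the floor. In the inner medulla 21 counts stood against 0, at least 1.51-fold higher. In the pelvis 10 counts stood against 4, the sections overlapped, and the ratio of 2.68 had an interval that included 1 (0.773 to 11.7). In the inner stripe 25 counts stood against 1, a ratio of 17.7 (2.90 to 728), and the fitted rise there was lost without ischemic section 2 (adjusted p = 0.278). The levels of Slc7a11 differed among the ischemic zones (adjusted p = 0.000144, where 53.2% of genes passed).

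In the outer stripe, which held most Slc7a11 counts, the neutrophil, fibroblast and endothelium sums also rose with ischemia, and the macrophage sum did not. The 6 endothelium markers summed to 395 and 415 CPM in the normal and 520 and 544 CPM in the ischemic outer stripe. Of these, 3 were higher and 1 lower over whole sections. The 7 neutrophil genes, S100a8 and S100a9 among them, rose in 7 of 7 cases, and their summed level in the outer stripe was 2.33 and 2.30 CPM in normal sections and 340 and 345 CPM in ischemic sections, against 75.2 and 87.2 CPM in the ischemic cortex. Mmp8 was at 0 in both normal sections. The 8 macrophage markers summed to 307 and 301 CPM in the normal and 303 and 284 CPM in the ischemic outer stripe, with 2 of 8 higher and 4 lower over whole sections. The 6 fibroblast markers summed to 212 and 214 CPM in the normal and 487 and 484 CPM in the ischemic outer stripe, with 5 higher and 1 lower over whole sections. Their ischemic sums were higher in the inner stripe (741 and 679 CPM), inner medulla (747 and 647 CPM) and pelvis (842 and 835 CPM). In the ischemic cortex they were lower (320 and 369 CPM). Within the ischemic outer stripe, 86 of 621 and 74 of 681 spots held a Slc7a11 UMI. The neutrophil list stood at 376 and 522 CPM in these spots and at 314 and 297 CPM in the others, the macrophage list at 313 and 291 against 283 and 267 CPM, and Srxn1 at 531 and 603 against 403 and 416 CPM (plain CPM). These spots were also deeper, with a median of 16376.5 and 15166 UMIs against 15418 and 11512. The 6 tubule injury markers stood at 27013 and 25305 plain CPM in them, below 31268 and 30700 plain CPM in the others. The part of these cells in the rise of Slc7a11 was not tested.

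Acyl-CoA synthetase long-chain family member 4 (Acsl4, ENSMUSG00000031278, chrX:142317993-142390535, minus strand) stood at 15.1 and 16.5 CPM in normal and at 97.9 and 107 CPM in ischemic sections. The groups lay far apart (2.70 ± 0.11, adjusted p = 2.1e-07), a 6.51-fold rise. Unlike Srxn1, Acsl4 had its lowest level in the outer stripe, both in normal (12.0 and 12.7 CPM) and in ischemic sections (89.6 and 89.5 CPM). In ischemic sections the inner stripe (101 and 113 CPM) came next, and the cortex (120 and 132 CPM) and inner medulla (115 and 138 CPM) overlapped above it. The difference among ischemic zones (adjusted p = 0.0157) was lost without ischemic section 1 (0.199) or section 2 (0.466). The rise was 2.51 (cortex), 2.86 (outer stripe), 2.95 (inner stripe) and 2.95 (inner medulla), and no difference from the cortex passed the test (0.34 to 0.44, adjusted p 0.271 to 0.374).

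The members also differed in how they followed the tubule injury marker Havcr1 inside the ischemic cortex. Cortex spots of each ischemic section were ranked by Havcr1, read with their neighbours, and split into 3 equal groups. The groups also differed in depth. The median was 10711 and 6874 UMIs a spot in the group with least Havcr1, and 13874.5 and 10930 in that with most. The part of depth or cell content in the ratios was not tested. Nqo1 was 1.66 and 1.66 times as high in the group with most Havcr1 as in that with least, Gclm 1.46 and 1.64, Txnrd1 1.44 and 1.35, Srxn1 1.27 and 1.41, Gsr 1.25 and 1.44 and Gclc 1.32 and 1.24 times. G6pdx was 1.03 and 1.10, Acsl4 0.937 and 0.977 and Nfe2l2 0.845 and 0.946 times. The first 6 genes were thus higher where Havcr1 was high in both sections, and Acsl4 and Nfe2l2 were not. These 2 genes had 273 to 490 counts a group. Acsl4 was highest in the middle group of both sections (115 and 129 plain CPM). Nfe2l2 was highest in the middle group of ischemic section 2 (113 plain CPM), but not of ischemic section 1 (104 plain CPM). Spots of a section share that section, so this is a description of 2 sections and carries no test.

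Over the 16 sums of section and zone (pelvis left out), which share sections and the contrast of ischemia, the closest pairs of members were Txnrd1 with Gsr (Pearson's r of log2 CPM 0.975) and Txnrd1 with Srxn1 (0.953). Nqo1 went with Gclm (0.895), and Nfe2l2 with Acsl4 (0.912) but little with Nqo1 (0.106) or Gclm (-0.130). Gclc and Gclm, whose products form 1 enzyme, had an r of 0.455. Among 11628 genes with a mean of at least 20 counts, those most like Txnrd1 were Psmd11 (0.990), a proteasome subunit gene, Hmox1 (0.989), the heme oxygenase 1 gene, and Nrg1 (0.988). Nqo1 was followed by Prdx6 (0.969), Esd (0.967) and Pdxk (0.966), and Gclm by Ugdh (0.963), Mrpl38 (0.954) and Cldn12 (0.951). Srxn1 was closest to Steap2 (0.989), Gm3776 (0.984) and Cstb (0.981), and Gsr to Ier3ip1 (0.976), Txnrd1 (0.975) and Hsd17b12 (0.974). G6pdx went with S100a10 (0.958), Sox9 (0.943) and Ttc27 (0.936), Acsl4 with Ppp1r14b (0.981), Slc39a1 (0.980) and Dync1i2 (0.978), and Nfe2l2 with Midn (0.979), Bzw2 (0.976) and Sox4 (0.962). For Gclc the values were lower, with Arl1 (0.865), Marveld3 (0.831) and Clmp (0.827). Slc7a11 had too few counts for this comparison.

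Other genes of the pathway did not move as 1 group. Of 10 regulators of NRF2, 3 rose and 1 fell over whole sections, beside 31.0% and 29.7% of all genes, so that the share that rose was near the background. The small MAF gene Maff rose most, from 1.19 and 1.85 CPM to 17.4 and 17.3 CPM (3.54), with Sqstm1, whose product p62 draws KEAP1 into autophagy (0.66), and Mafk (0.56), while the repressor gene Bach2 fell (-0.84). Keap1 itself stood at 45.2 and 37.0 against 38.2 and 38.5 CPM, and its change of -0.10 ± 0.11 did not pass (adjusted p = 0.453), with a sign that turned with library sizes alone (0.18) and without normal section 1 (0.06). Without normal section 2 it passed, at -0.27 (0.00195).

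Of 16 further targets of NRF2, 9 rose and 5 fell (31.0% and 29.7% of all genes), with a median of 0.77. Hmox1, which breaks down heme, rose from 20.003 and 13.8 CPM to 206 and 199 CPM (3.58, adjusted p = 5.5e-07), and the carbonyl reductases Cbr3 (4.33) and Cbr1 (1.64) rose as well. The carboxylesterase Ces1g (-3.40), the glutathione transferase Gstm1 (-0.95) and Osgin1 (-0.73) fell. By zone, 10 of the 16 rose and 1 fell (cortex, beside 20.2% and 19.9% of all genes), 7 rose and 2 fell (outer stripe, 27.4% and 29.5%), 5 rose and 6 fell (inner stripe, 22.2% and 25.9%), and 4 rose and 6 fell (inner medulla, 13.9% and 21.2%). Of 8 genes of NADPH supply, 4 rose and 1 fell (31.0% and 29.7% of all genes). Pgd (1.65), Taldo1 (1.25) and Tkt (0.99) of the pentose phosphate pathway rose with G6pdx, and the malic enzyme gene Me1 fell (-1.58).

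Cystine and glutathione genes went mostly the other way from Slc7a11. Of 12, 3 rose and 8 fell (31.0% and 29.7% of all genes), with a median of -1.42. Slc3a2, the heavy chain that carries SLC7A11 to the membrane, rose from 110 and 104 CPM to 153 and 148 CPM (0.49, adjusted p = 0.00384), Chac1, which degrades glutathione, rose by 3.09, and Glrx by 0.63. Cbs, which feeds cysteine synthesis from homocysteine (-3.22), Ggct (-2.55) and Slc3a1, the heavy chain of the apical cystine carrier of the proximal tubule (-2.42), fell. The 8 proximal tubule markers given above fell too, with a median of -2.46, and their part in this list was not tested. In the thioredoxin system 3 of 12 genes rose and 4 fell, shares close to the 31.0% and 29.7% of all genes. Txn1 (1.25), Txnrd3 (0.92) and Prdx6 (0.72) rose, whereas Prdx5 (-0.75), Txn2 (-0.52) and Txnrd2 (-0.51) fell furthest, and Prdx4 also fell (-0.29).

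Among acyl-CoA synthetases and genes of lipid peroxidation, 3 of 10 tested genes rose and 3 fell, again near the 31.0% and 29.7% of all genes, and Acsl6 and Alox15 were too low to test. Ptgs2 (4.65), Tfrc, the transferrin receptor (1.32), and Acsl5 (1.27) rose, and Alox12 (-0.71) and Acsl1 (-0.65) fell. Gpx4, the peroxidase that clears lipid hydroperoxides, stood at 3590 and 2463 CPM in normal and at 1447 and 1375 CPM in ischemic sections (-1.10 ± 0.22, adjusted p = 0.00191). Without ischemic section 1 or section 2 the fall of Gpx4 kept its size (-1.13 and -1.05) but missed the threshold (adjusted p = 0.0826 and 0.11). Calls also missed the threshold without ischemic section 1 or section 2 for Sqstm1 (0.0629 and 0.0733), Slc3a2 (0.0984 and 0.0734), Bach2 (0.071 and 0.0906), Alox12 (0.0928 and 0.0822), Prdx5 (0.207 and 0.237) and Txn2 (0.167 and 0.253), for Prdx6 without ischemic section 1 (0.0573) and for Gstm1 without ischemic section 2 (0.0693). With library sizes alone the falls of Txnrd2 (-0.23, adjusted p = 0.1504), Bach2 (-0.58, 0.167) and Alox12 (-0.45, 0.229) were lost.

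**Figure D5:**
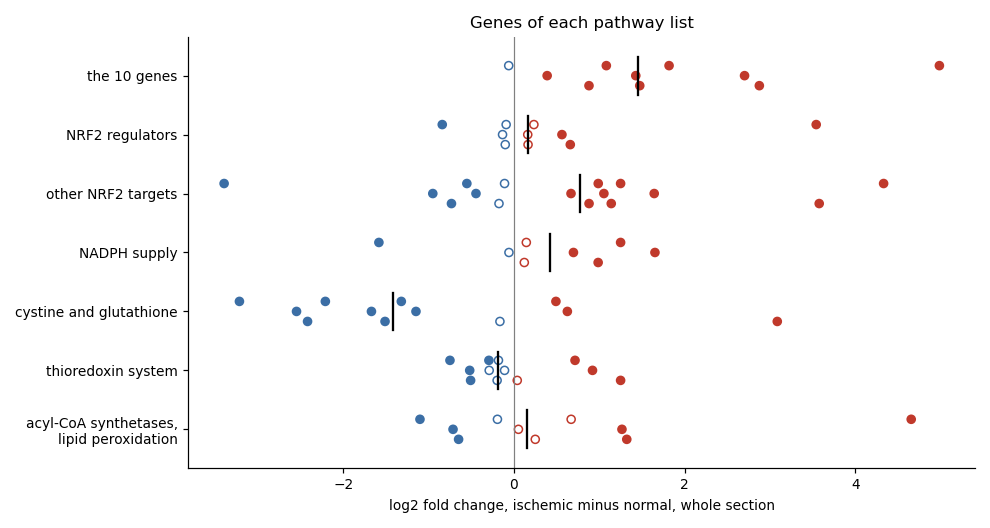
Log2 fold change over whole sections, ischemic minus normal, of the 10 genes and of 6 lists of related genes. Each dot is a gene, red above and blue below 0, filled where the adjusted p was under 0.05 and open where it was not, and the black bars are list medians. The 10 genes have a median of 1.45, the further NRF2 targets one of 0.77 and the cystine and glutathione genes one of -1.42.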

How the data were processed

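The authors deposited UMI counts per gene and tissue spot for each section, whole numbers without normalization, made with Space Ranger 1.3.0 (file header) on mm10 (submitters' processing notes). Barcodes, features and spot positions came with them. The members and gene lists were chosen with earlier results of these data known. Named genes were the 10 members, at most 3 genes a direction with the largest called change in each further list, Keap1, Slc3a2, Hmox1 and Gpx4 whatever they showed, and the 3 genes most correlated with each member.

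Spots were assigned to cortex, outer stripe, inner stripe, inner medulla or pelvis from marker genes, scored as log2(CPM + 1) over a spot and its up to 6 neighbours and standardised within a section, the highest score naming the zone and pelvis taken by its own markers over it. Counts were summed per section, and per section and zone (at least 20 spots), and tested with edgeR 4.0.16 (R 4.3.3; filterByExpr, TMM, quasi-likelihood), 1 group per condition and zone, Benjamini-Hochberg over all genes tested. SE was the fold change divided by the square root of F. The fit shares 1 spread over all sums, although zones of a section share that section. The correlation of sums within a section, estimated with limma-voom, was 0.175. The scripts were tested on simulated counts. Alternatives were RLE factors, library size only, no filter, spots of at least 500 UMIs, replicate block, each section left out, DESeq2 1.42.0, 3 other zone rules, limma 3.58.1 voom with section as a random effect, each zone alone and, chosen after seeing the data, both inner zones as 1.

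Loci are from GENCODE vM21 (GRCm38), where 32158 of 32285 gene IDs matched. UMIs per section were 44528078, 27657481 (normal), 31053530 and 25957128 (ischemic), and 3 counts of a section corresponded to 0.0813 to 0.109 CPM.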

Additional observations from a re-analysis of the deposited data

Results flagged for a closer look

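In 7 cases the change with ischemia of a member differed between a zone and the cortex by the test of that difference (interaction term, edgeR, adjusted p under 0.05, beside 11.7% of genes for the outer stripe, 11.1% for the inner stripe and 7.25% for the inner medulla). For Nqo1 the change was below that of the cortex in the outer stripe (-0.84 on the log2 scale), the inner stripe (-2.68) and the inner medulla (-1.78). For Gclc it was below it in the outer stripe (-1.31), for Gclm in the inner stripe (-1.69) and for G6pdx in the inner stripe (-1.03). Srxn1 was the member whose change exceeded that of the cortex, by 1.32 in the outer stripe. Leaving out either ischemic section leaves 1 section in that group, and far fewer of all genes then pass for these differences. Most of the 7 calls were lost there too. Without ischemic section 1 or 2 the differences were 1.37 and 1.27 (Srxn1), -1.37 and -1.26 (Gclc), -1.69 and -1.67 (Gclm) and -1.07 and -0.996 (G6pdx). For Nqo1 they were -0.86 and -0.83 (outer stripe) and -2.11 and -1.49 (inner medulla). The inner stripe difference of Nqo1 was -2.86 to -1.69 over its alternatives. Slc7a11 was left out, as its normal counts were 0 or near 0 in most zones.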

How the results depend on the processing

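With 2 sections a group, leaving out a section left 1 in an arm, assumed to vary like the others. Members past the threshold over whole sections ranged from 8 to 10. Inner stripe and inner medulla each gave 5 to 9, and all genes gave 2508 to 7090 (cortex), 4220 to 7511 (inner stripe) and 2549 to 4598 (inner medulla). For differences from the cortex the ranges were 0 to 4 members and 14 to 2960 genes (outer stripe), 1 to 5 and 186 to 3013 (inner stripe) and 0 to 3 and 102 to 2093 (inner medulla). For zones in ischemic sections they were 4 to 10 and 2290 to 9523. Counts of all genes were 3077 for the inner medulla fitted alone, and, with limma-voom, 2860 (outer stripe), 2439 (inner stripe) and 1581 (inner medulla) for differences from the cortex. DESeq2 and limma-voom each gave 5 members for the inner stripe difference, and no filter or zones without neighbours gave 2 members for the inner medulla difference. Of single-gene values under alternatives, 1610 kept direction and side of the threshold, 90 lost and 60 gained the call, and 24 changed sign. The causes were not tested.

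Zones from the spot alone turned the inner stripe change of Nqo1 to 0.48 (-0.78 to -0.06 over left-out sections) and the differences of Nfe2l2 from the cortex to -0.041 (outer stripe) and -0.067 (inner stripe). Without spots near a boundary the inner medulla difference of Nfe2l2 was -0.0030. Over left-out sections these Nfe2l2 differences ranged from -0.0088 to 0.085, -0.051 to 0.13 and -0.019 to 0.50. Gclc over whole sections was 0.22 with library sizes alone and -0.23 to 0.10 over left-out sections, and Keap1 was 0.18 and -0.27 to 0.062. Differences from the cortex over left-out sections were -0.11 to 0.89 (Gclc, inner stripe), -0.59 to 0.22 (Gclm, inner medulla), -0.40 to 0.12 (Txnrd1, inner medulla), -0.059 to 0.42 (Gsr, inner medulla) and -0.093 to 0.20 (Gsr, inner stripe). The last was also 0.023 (RLE), 0.12 (library sizes alone), 0.090 (no filter), 0.023 (DESeq2), 0.14 (zones from the spot alone), 0.33 (without boundary spots) and 0.029 (inner zones joined).

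With section number as a replicate block, 9 members and 10089 genes passed over whole sections. For the inner stripe difference 5 members passed in place of 3, beside 2113 genes in place of 1576. The labels tie a number to no mouse. The difference between sections 1 and 2 in normal and in ischemic kidneys had a correlation of 0.162 over 15305 genes. This value cannot settle whether sections of the same number share anything more than that number.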
